A study of Mus musculus with 36 samples.

Results

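Fetal Leydig cells are the steroid-producing cells of the embryonic testis. They appear shortly after Sertoli cells begin to organise the testis cords, take up or make cholesterol, bring it into mitochondria and convert it, by a chain of cytochrome P450 and hydroxysteroid dehydrogenase steps, into androgens, and they also secrete the peptide hormone INSL3, which acts on testis descent. The differentiating ovary makes little steroid at these stages. Here, 10 genes of steroid synthesis or fetal Leydig cells were followed. They were the cholesterol importer genes Scarb1 and Star, and the side-chain cleavage enzyme gene Cyp11a1 with its electron donors Fdx1 and Fdxr. The others were the downstream enzyme genes Cyp17a1, Hsd3b1, Hsd17b1 and Hsd17b3, and Insl3. Not every one need be read from Leydig cells, and the cell of origin was not tested in these libraries. The 10 genes were picked by gene symbol for their known roles, and all 10 were found among the 21699 genes of the count tables. In GRCm38 they lie on 7 chromosomes, with Star (chr8:25806555-25815982) and Insl3 (chr8:71689214-71690575) on one, Cyp11a1 (chr9:58006411-58027023) and Fdx1 (chr9:51943306-51963556) on another, and Fdxr (chr11:115268024-115277050) and Hsd17b1 (chr11:101078411-101080527) on a further one. Hsd3b1 (chr3:98852194-98859794), Scarb1 (chr5:125277087-125341094), Hsd17b3 (chr13:64058266-64089230) and Cyp17a1 (chr19:46667165-46673172) lie alone.

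The libraries came from mouse embryos in which the miR-17~92 microRNA cluster had been deleted, and the design asks how loss of the cluster alters gene expression in XX and XY gonads around sex determination. KO embryos were homozygous for the deleted cluster (miR-17~92 del/del) and came from the deleter line Tg(CAG-cre)1Nagy, in which Cre recombinase under a ubiquitously active promoter removes the floxed cluster in the whole embryo, so the loss is not restricted to gonadal cells. Controls are labelled WT and no further genotype is given for them. The floxed line was on a C57BL/6 × 129S4/SvJae background, and no embryo received a treatment. Each of the 4 genotypes (XX control, XX KO, XY control and XY KO) had 3 libraries at E11.5 and 3 at E12.5, 24 in all, and each library pooled 2 pairs of gonads. At E11.5 the gonad was taken with its mesonephros, and the libraries were made with a different kit from those of the isolated E12.5 gonads, so stage, tissue and kit cannot be told apart and no test was run between stages.

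Counts assigned to genes ranged from 17150620 to 34077443 per library at E11.5 and from 11877379 to 44155275 at E12.5. Xist and the Y-linked gene Ddx3y matched the labelled sex in every library. Whole-gene counts of the cluster's host gene Mir17hg run past the deleted segment and so do not check the deletion. Mir17hg was read at 98.2 to 154 CPM (counts scaled to the library total) in KO and 17.6 to 44.6 CPM in control libraries at E11.5, and at 66.7 to 83.8 CPM in KO and 13.4 to 37.3 CPM in control libraries at E12.5.

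The microRNAs removed by the deletion are shown because their seeds, bases 2 to 8 in capitals, define which transcripts they could pair with. The mature sequences are from RefSeq (GRCm38.p6, chromosome 14, plus strand), and the cluster falls into 4 seed families.
mmu-miR-17-5p: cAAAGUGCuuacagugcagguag
mmu-miR-20a-5p: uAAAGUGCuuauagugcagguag
mmu-miR-18a-5p: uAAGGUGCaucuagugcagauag
mmu-miR-19a-3p: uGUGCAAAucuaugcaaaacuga
mmu-miR-19b-3p: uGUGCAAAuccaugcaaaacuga
mmu-miR-92a-3p: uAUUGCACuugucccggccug

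The 3′ UTRs of the 10 genes were searched for the exact complement of each seed, that is GCACTTT for miR-17 and miR-20a, GCACCTT for miR-18a, TTTGCAC for miR-19 and GTGCAAT for miR-92a, on the transcript strand. Matches were found in 2 of the 10 genes, and the 3 sites are printed with their flanks, the matched bases in capitals.
Star, miR-17 family: gtaggcagcaaGCACTTTcatccgcagtg
Star, miR-18 family: agtactgtcaaGCACCTTgataacttcta
Scarb1, miR-19 family: gtcctgaccagTTTGCACacacactctgg
In Star the sites lie at bases 1975 to 1981 and 2684 to 2690 of a 3096-base 3′ UTR, and in Scarb1 at bases 471 to 477 of 779. Of 17987 genes with an annotated 3′ UTR, 29.4% hold at least 1 such match, and the median length of these UTRs is 979 bases. The UTRs of the other 8 genes hold none, and 7 of them are shorter than that median. A match of letters is a description and does not show that a transcript is bound.

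At E12.5 the 10 genes were at their highest in the control testis. All 10 genes passed the filter on low counts at this stage, and all 10 were lower in XX control than in XY control gonads (edgeR quasi-likelihood test, FDR under 0.05). Across the 14348 genes tested at E12.5, 12.4% were called lower in that comparison and 23.8% in either direction. Insl3, Hsd17b1 and Hsd17b3 reached 1 CPM only in XY control libraries, with at most 0.36, 0.88 and 0.52 CPM elsewhere. They passed the filter only through the group in which they are high. Their calls against XY control, here and below, are therefore not independent of the filter. In whole gonads, fewer cells of a type and less RNA per cell cannot be told apart, and this holds for every difference below. Exon-length-scaled levels (RPKM, CPM divided by exon length in kilobases) put Hsd3b1 at 195 ± 53.1 (SD, n = 3) and Cyp17a1 at 181 ± 74.4 at the top in XY control gonads, a pair that did not differ beyond their spread. Cyp11a1 (72.5 ± 36.7), Fdxr (69.7 ± 14.8) and Star (52.1 ± 18.3) followed, each within the spread of its neighbour, then Hsd17b3 (40.3 ± 7.48), Scarb1 (34.0 ± 10.2), Fdx1 (22.3 ± 4.21), Insl3 (14.9 ± 13.9) and Hsd17b1 (7.93 ± 0.67). In XX control gonads the order was different. Fdxr stood first at 23.8 ± 3.58 RPKM, followed by Scarb1 at 10.1 ± 0.99, while Hsd17b3 was last at 0.13 ± 0.08.

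**Figure D1:**
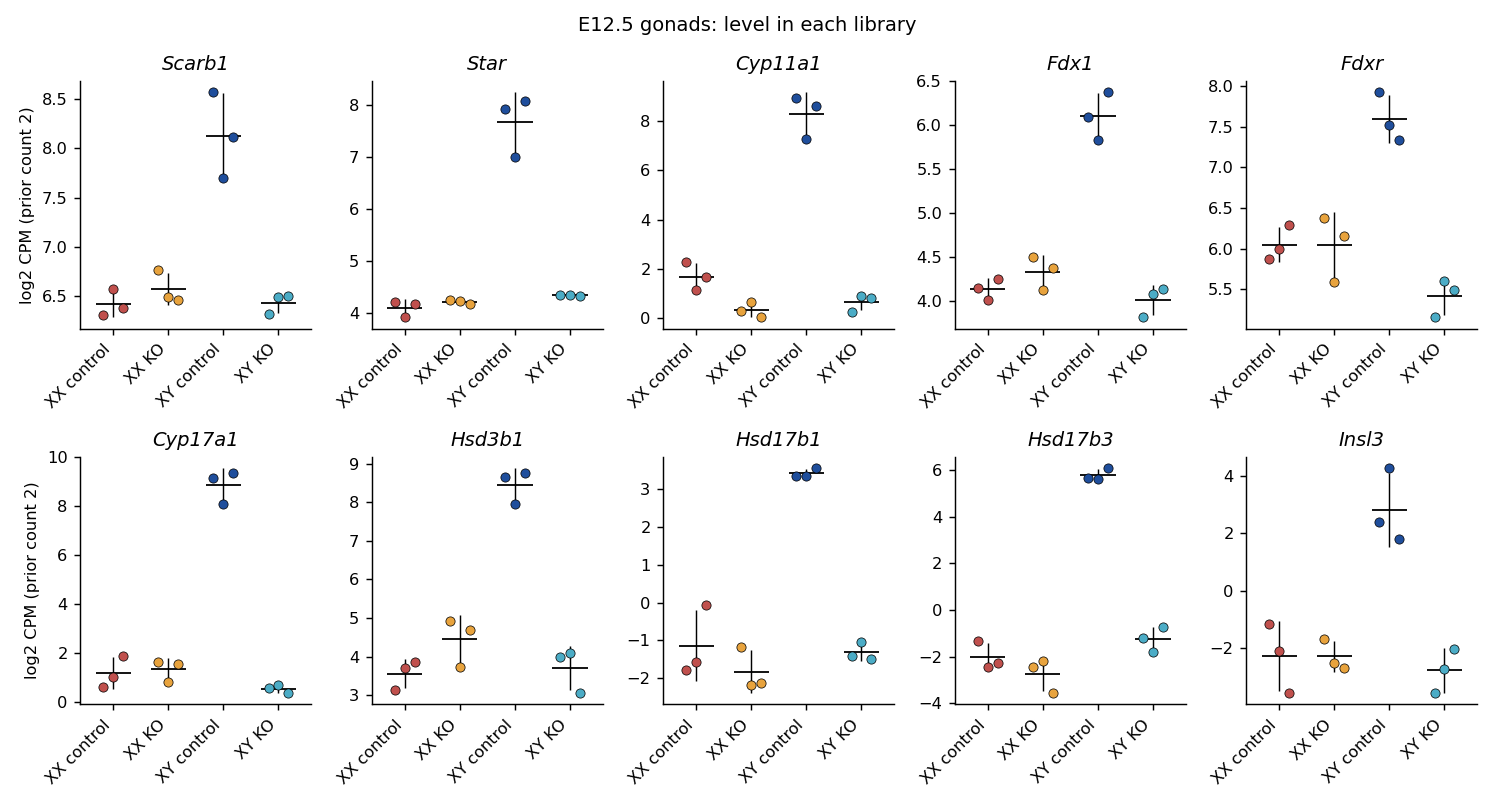
Level of each of the 10 genes in the 12 E12.5 libraries, as log2 CPM (prior count 2), one panel per gene with its own vertical range. Points are libraries in replicate order, horizontal bars are group means and vertical bars the SD. In every panel the 3 XY control libraries lie above the other 9.

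XY KO gonads lacked the testis level of each of the 10 genes. All 10 were lower in XY KO than in XY control gonads at E12.5, against 10.3% of all genes tested called lower and 20.6% called in either direction. In none of the 10 did the 3 KO libraries overlap the 3 control libraries. The share of all genes without such overlap was not computed, so this is a description only. Falls ran from 3.33-fold for Scarb1 to 370-fold for Cyp17a1, as the fitted values give them, with a median log2 fold change of -4.91 over the 10 genes beside -0.01 over all genes tested. The size of the fall was graded over the genes. Cyp17a1, Cyp11a1, Hsd17b3, Insl3, Hsd17b1, Hsd3b1 and Star, fell by 3.40 or more on the log2 scale, whereas the more widely used Fdxr, Fdx1 and Scarb1 fell by 2.19 or less.

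Cholesterol entry comes first. Star, which carries cholesterol to the inner mitochondrial membrane and limits the rate of acute steroid production, was read at 243, 129 and 271 CPM in the XY control libraries and at 20.5, 20.3 and 20.04 CPM in XY KO. Its fitted log2 fold change was -3.40 (SE 0.22, FDR 9.5e-08). The XX libraries lay close to the XY KO ones, at 18.5, 15.0 and 18.1 CPM in control and 19.1, 18.7 and 18.1 CPM in KO gonads, so that a low but countable Star level, at 289 to 824 reads per library, was left in all 9. Scarb1, the HDL receptor that delivers cholesterol esters, was read at 380, 208 and 278 CPM in XY control and at 79.6 to 90.3 CPM in XY KO gonads. It fell by 1.74 on the log2 scale (SE 0.18, FDR 7.7e-06), and the residual level was in the range of XX controls, 79.4 to 95.5 CPM.

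Side-chain cleavage turns cholesterol into pregnenolone and commits a cell to steroid production. The enzyme gene Cyp11a1 was read at 498, 154 and 393 CPM in XY control libraries, against 1.11, 1.75 and 1.69 CPM in XY KO. The fitted log2 fold change was -7.82 (SE 0.46, FDR 4.4e-08). XX control libraries held slightly more, at 4.74, 2.12 and 3.06 CPM, and XX KO libraries 1.15, 1.49 and 0.94 CPM, so the highest XX KO library lay below the lowest XX control library. The electron donors moved less. Fdx1, ferredoxin, was read at 56.8 to 82.9 CPM in XY control and 13.97 to 17.6 CPM in XY KO gonads (log2 fold change -2.10, SE 0.16, FDR 5.2e-07). Fdxr, the reductase that feeds it, was read at 242, 183 and 162 CPM in XY control and at 35.5, 48.5 and 44.9 CPM in XY KO gonads (-2.19, SE 0.21, FDR 3.4e-06).

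The later enzymes lead from pregnenolone to androgens. Cyp17a1, which makes the androgen precursors and marks steroid-producing theca and Leydig cells, was read at 571.5, 270.1 and 664 CPM in XY control and at 1.40, 1.55 and 1.201 CPM in XY KO gonads (log2 fold change -8.53, SE 0.43, FDR 1.0e-08). This was the largest change of the 10, and both XX groups were also low, between 1.44 and 3.63 CPM in controls and 1.68 and 3.06 CPM in KO gonads. Hsd3b1, a 3-beta-hydroxysteroid dehydrogenase, was read at 402, 250.4 and 435.5 CPM in XY control and at 15.7, 17.1 and 8.19 CPM in XY KO gonads (-4.75, SE 0.37, FDR 5.3e-07). Hsd3b1 belongs to a family of near-identical neighbours on chromosome 3, and how reads shared with those copies were counted is not given in the sources used here, so its level is uncertain to that degree. Hsd17b3, which completes testosterone, was counted 1173, 1129 and 782 times in XY control and 6, 3 and 19 times in XY KO libraries (-7.12, SE 0.35, FDR 6.7e-09). In XX gonads it was at the floor, with 6, 2 and 2 reads in control and 3, 6 and 0 reads in KO libraries. Hsd17b1, better known for oestrogen synthesis, was read at 10.1 to 11.6 CPM in XY control gonads and at no more than 0.41 CPM in XY KO (-5.06, SE 0.45, FDR 1.5e-06).

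Insl3 was the least even of the 10 genes among the control testes. Its counts were 120, 444 and 39 in XY control libraries, or 5.22, 19.3 and 3.39 CPM, and 0, 1 and 6 in XY KO libraries. XX control libraries held 7, 3 and 0 reads and XX KO libraries 7, 4 and 2. The fitted log2 fold change in XY KO gonads was -6.51 (SE 0.86, FDR 7.6e-05), a value resting on 7 reads in 3 KO libraries, and it was -5.41 without XY control replicate 2 and -8.0 without XY KO replicate 3. Insl3 also lies within the gene Jak3 on the same strand of chromosome 8 (GRCm38, 71689214 to 71690575), where 404 of its exon bases, 64.8%, are also Jak3 exon. How reads in these shared bases were counted is not given in the sources used here. The Insl3 counts, RPKM and fold change are uncertain to that degree. Jak3 itself was read at 10.7 to 18.9 CPM in XY control and 8.24 to 21.4 CPM in XY KO gonads at E12.5, and the groups overlapped.

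XY control replicate 2 held the lowest level of the 3 XY control libraries for Star, Scarb1, Cyp11a1, Cyp17a1, Hsd3b1, Fdx1 and Hsd17b3, and the highest for Insl3. All 10 genes were still lower in XY KO than in XY control gonads when it was left out.

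In XX gonads of E12.5 no change of the 10 genes passed the test. At E12.5, 0 of the 10 were called between XX KO and XX control gonads (edgeR; 2 at an unadjusted p under 0.05), against 5.26% of all genes tested. The 2 were Cyp11a1, with a log2 difference of -1.43 (95% interval -2.41 to -0.46, FDR 0.081), and Hsd3b1, at 0.95 (0.24 to 1.66, FDR 0.11). With DESeq2, Cyp11a1 was called (log2 -1.48, adjusted p = 0.030), as it was in edgeR without XY control replicate 2 (-1.44, FDR 0.018), and Hsd3b1 was called without XX KO replicate 2 (1.24, FDR 0.026). Intervals for Star (-0.33 to 0.56), Scarb1 (-0.23 to 0.53), Fdx1 (-0.14 to 0.55) and Fdxr (-0.42 to 0.45) bound the log2 difference of these 4 genes. Those for Insl3 (-2.85 to 1.92) and Hsd17b3 (-2.55 to 0.53) are too wide at these counts to say more.

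At E12.5 the log2 effect of the deletion differed between the sexes for all 10 genes, each already lower in XX than in XY controls. The interaction, that is the log2 effect in XY minus that in XX gonads, was called for all 10 at E12.5, each lower in XY, against 7.05% of all genes tested called lower and 12.9% in either direction. It was largest for Cyp17a1 at -8.64 (SE 0.56, FDR 5.8e-07) and smallest for Scarb1 at -1.89 (SE 0.25, FDR 1.5e-04). Insl3, Hsd17b1 and Hsd17b3 passed the filter only through XY control libraries, so their interaction calls are not independent of the filter. XX controls were already 2.94-fold (Fdxr) to 300-fold (Hsd17b3) below XY controls. Genes near the floor in XX gonads, such as Hsd17b3 and Insl3, had hardly any room to fall. Scarb1, Fdxr, Fdx1 and Star were not near it, with at least 289 reads in each XX control library. As 0 of the 10 genes were called in XX gonads, the interaction largely repeats the XY comparison, where Cyp17a1 fell by 8.53. It is not a separate result. The Insl3 interaction, -6.05 (SE 1.51, FDR 0.016), was lost when XX KO replicate 1 was left out (-5.45, FDR 0.090), and it was -7.54 without XY KO replicate 3, -7.11 without XX control replicate 1 and -4.95 without XY control replicate 2. For Hsd17b3 the interaction of -6.11 moved to -6.78 when XX control replicate 1 was left out and to -5.41 when XX KO replicate 2 was, and for Hsd17b1 that of -4.05 was -4.93 without XX control replicate 3.

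Set against ovaries, XY KO gonads were low for the same genes. None of the 10 genes was called between XY KO and XX control gonads at E12.5 (edgeR; 2 at an unadjusted p under 0.05), where 5.03% of all genes tested were. Between the KO gonads of the 2 sexes none was called either (edgeR and DESeq2; 3 in edgeR at an unadjusted p under 0.05), where 0.153% of all genes were. Fdxr came closest to a call against XX controls, at -0.63 (95% interval -1.07 to -0.20, FDR 0.093), its 3 XY KO libraries below all 3 XX control libraries of 58.5 to 77.9 CPM. DESeq2 called it (log2 -0.63, adjusted p = 0.038). Without XX KO replicate 2, Fdxr was called in both comparisons (-0.63, FDR 0.040, and 0.84, FDR 0.018), and Hsd17b3 (-2.81, FDR 0.030) and Hsd3b1 (1.07, FDR 0.039) passed between the KO groups. Hsd17b3 was higher in each XY KO library (0.20 to 0.52 CPM) than in each XX KO library (at most 0.14 CPM), a log2 difference of -2.12 for XX KO over XY KO (95% interval -3.35 to -0.88, FDR 0.24) at 28 against 9 reads. For Star the interval against XX controls was -0.22 to 0.69 and for Cyp17a1 -1.75 to 0.22.

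**Figure D2:**
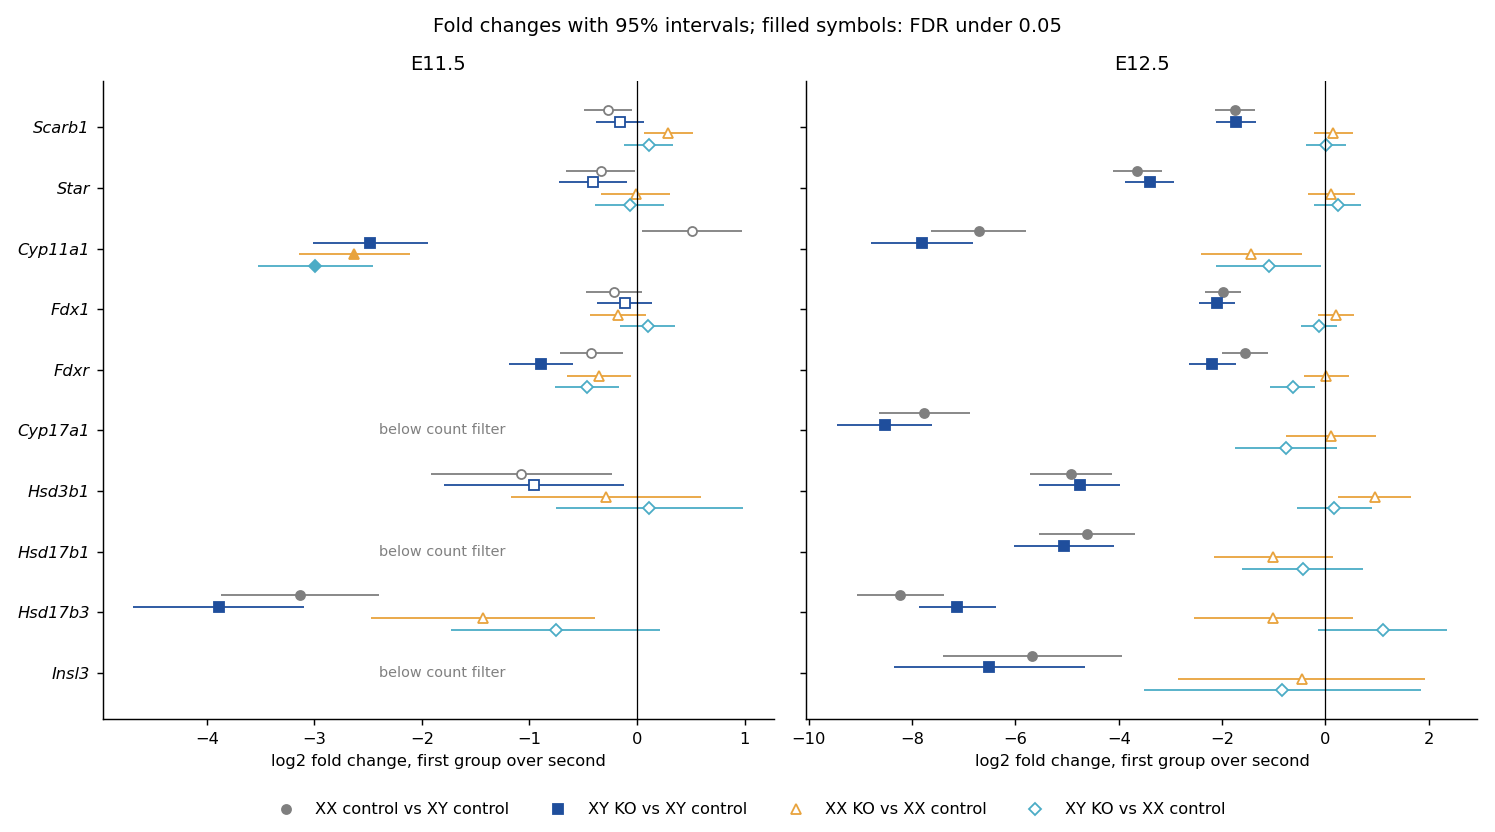
Log2 fold changes of the 10 genes at E11.5 (left) and E12.5 (right) for XX control over XY control, XY KO over XY control, XX KO over XX control and XY KO over XX control, with 95% intervals as horizontal bars. Filled symbols passed an FDR of 0.05. At E12.5 XX control and XY KO gonads were both far below XY control, and the estimates for XX KO over XX control and XY KO over XX control lie between -1.43 (Cyp11a1) and 1.11 (Hsd17b3). At E11.5 Cyp11a1 stands apart in both KO groups. The horizontal scales of the panels differ.

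Markers of some other cell types moved with these genes. The shares beside them are again 10.3% of all genes called lower and 20.6% called in either direction. The summed level of 10 Sertoli cell markers was 1888 to 2557 CPM in XY control gonads and 58.9 to 93.6 CPM in XY KO at E12.5, and all 10 were called lower. All 7 pre-granulosa markers were called higher in XY KO, with a sum of 592 to 651 CPM against 107 to 144 CPM. Mesonephric markers (6 of 8 higher, 1 lower) summed to 299 to 345 CPM in XY KO and 104 to 135 CPM in XY control gonads. Germ cell markers (2 of 7 lower) summed to 716 to 879 CPM in XY KO and 948.5 to 1240 CPM in XY control gonads. Endothelium markers (2 of 7 higher) summed to 694 to 786 CPM against 513 to 648 CPM. Of 6 macrophage markers 1 was higher, and of 6 erythroid markers tested 0 were called. The part of these cells in the changes of the steroidogenic genes was not tested. Adrenal cortex cells use the same early steps of steroid synthesis, so their markers were also read. At E12.5, 4 of the 5 were tested and all 4 were called lower in XY KO, with a sum of 10.02 to 20.2 CPM in XY control and 2.63 to 3.82 CPM in XY KO gonads. Among them the cortical enzyme genes Cyp11b1 (0.87 to 4.78 CPM) and Cyp21a1 (0.74 to 3.09 CPM) were counted in XY control gonads, while Cyp11b2 was at 0 to 0.22 CPM. Their share in the signal of the 10 genes was not tested.

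The 12 E12.5 libraries were also searched for genes outside the 10 with the most similar pattern. Likeness was the Pearson correlation with the mean centred log2 CPM of Star, Cyp11a1, Cyp17a1, Hsd3b1 and Insl3, given here as a description over 12 libraries that share the contrast of the 3 XY controls with the rest. The closest 8 were Crhr1 (r = 0.995), Mafk (0.993), Miox (0.993), Tspan15 (0.991), Rtn4rl1 (0.990), Ppp1r3a (0.989), Me1 (0.988) and Tmem184a (0.988). Crhr1, the receptor for corticotropin-releasing hormone, was read at 10.8 to 32.9 CPM in XY control gonads, at 0 in all XY KO libraries and at no more than 0.06 CPM in XX libraries. Me1, the NADP-dependent malic enzyme, was read at 278 to 370.2 CPM in XY control and 56.6 to 68.9 CPM in XY KO gonads. The members that did not enter the reference followed it as well, with r from 0.932 for Fdxr to 0.985 for Fdx1.

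Other genes of steroid metabolism changed in both directions. Of 16 listed genes 14 were tested at E12.5, and between XY KO and XY control gonads 4 were lower, 1 was higher and 9 were not called, where 10.3% of all genes were lower and 20.6% called in either direction. The median log2 fold change was -0.04 beside -0.01 over all genes. Lhcgr, the receptor for luteinising hormone, fell from 16.1 to 44.7 CPM in XY control to 1.26 to 2.50 CPM in XY KO gonads (-4.09, SE 0.36, FDR 1.3e-06). Hsd11b2, which inactivates glucocorticoids, fell from 130 to 159 CPM to 25.1 to 35.6 CPM (-2.34, SE 0.18, FDR 3.7e-07). Hsd17b7 (-0.88, FDR 0.014) and Hsd17b12 (-0.59, FDR 0.0010), with roles in cholesterol and fatty acid synthesis, fell less, and the Hsd17b7 call was lost without XY control replicate 3 (-0.61, FDR 0.068) or XY KO replicate 3 (-0.81, FDR 0.053). Akr1c14, a 3-alpha-hydroxysteroid dehydrogenase that lowers active androgen, rose from 6.92 to 9.73 CPM in XY control to 22.7 to 28.3 CPM in XY KO gonads (1.65, SE 0.23, FDR 1.3e-04), where XX controls were at 29.8 to 34.4 CPM. Hsd3b6, the paralogue of Hsd3b1, was not called (0.49, FDR 0.27), with 10.8 to 12.48 CPM in XY KO and 4.01 to 12.2 CPM in XY control gonads, and was called higher without XY control replicate 2 (0.92, FDR 0.039). The aromatase gene Cyp19a1 was below the filter, at no more than 0.47 CPM in any E12.5 library.

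Cholesterol supply genes fell in part and by little. Of 24 tested at E12.5, 10 were lower and 2 higher in XY KO than in XY control gonads, with a median of -0.48, and 12 were not called, beside the same 10.3% lower and 20.6% in either direction over all genes. Those of largest change included the sterol synthesis enzyme genes Msmo1 (-0.89, SE 0.21, FDR 0.0064), Lss (-0.89, SE 0.20, FDR 0.0050), Dhcr7 (-0.87, SE 0.20, FDR 0.0063) and Fdps (-0.87, SE 0.21, FDR 0.0072). Soat1, which stores cholesterol as esters, rose (0.84, SE 0.14, FDR 5.0e-04). Without XY control replicate 1 the number called in this list was 7 rather than 12.

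Among the listed Leydig lineage regulators, the largest changes were in Hedgehog pathway genes. Desert hedgehog, made by Sertoli cells, acts through Patched 1 and the Gli factors on interstitial cells to induce the fetal Leydig fate. Of 25 lineage regulators, all tested at E12.5, 10 were lower and 4 higher in XY KO than in XY control gonads, with a median of -0.28, again beside 10.3% lower and 20.6% in either direction over all genes. Dhh fell from 144 to 195 CPM in XY control to 2.40 to 4.72 CPM in XY KO gonads (-5.62, SE 0.25, FDR 3.4e-09). The pathway targets Hhip (-5.29, SE 0.36, FDR 1.5e-07), Ptch1 (-2.28, SE 0.32, FDR 1.4e-04) and Gli1 (-2.02, SE 0.35, FDR 7.4e-04) fell as well. Dhh is also among the Sertoli markers above, so its fall cannot be told apart from fewer Sertoli cells. The part of Hedgehog signals in the changes of the steroidogenic genes was not tested. Gli1 moved the other way in XX gonads, rising by 2.1 (SE 0.37, FDR 0.0091) from 5.90 to 7.84 CPM in control to 15.0 to 38.7 CPM in KO. Jag1, a Notch ligand, followed Gli1 in direction in both sexes (-1.63, SE 0.21, in XY and 0.90, SE 0.21, in XX gonads, FDR 4.2e-05 and 0.028).

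Regulators of steroidogenic gene expression changed by less. Nr5a1, the nuclear receptor that drives most of the steroidogenic genes, was read at 306 to 412 CPM in XY control and 193 to 235 CPM in XY KO gonads (-0.71, SE 0.16, FDR 0.0046). It was not called in XX gonads, where the 95% interval was -0.34 to 0.33 (FDR 0.998). Gata6 rose in XY KO gonads (1.12, SE 0.14, FDR 3.7e-05). In XX KO gonads 8 of the 25 regulators were higher than in XX controls and none was lower, where 490 of all 14348 genes were higher and 265 lower.

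**Figure D3:**
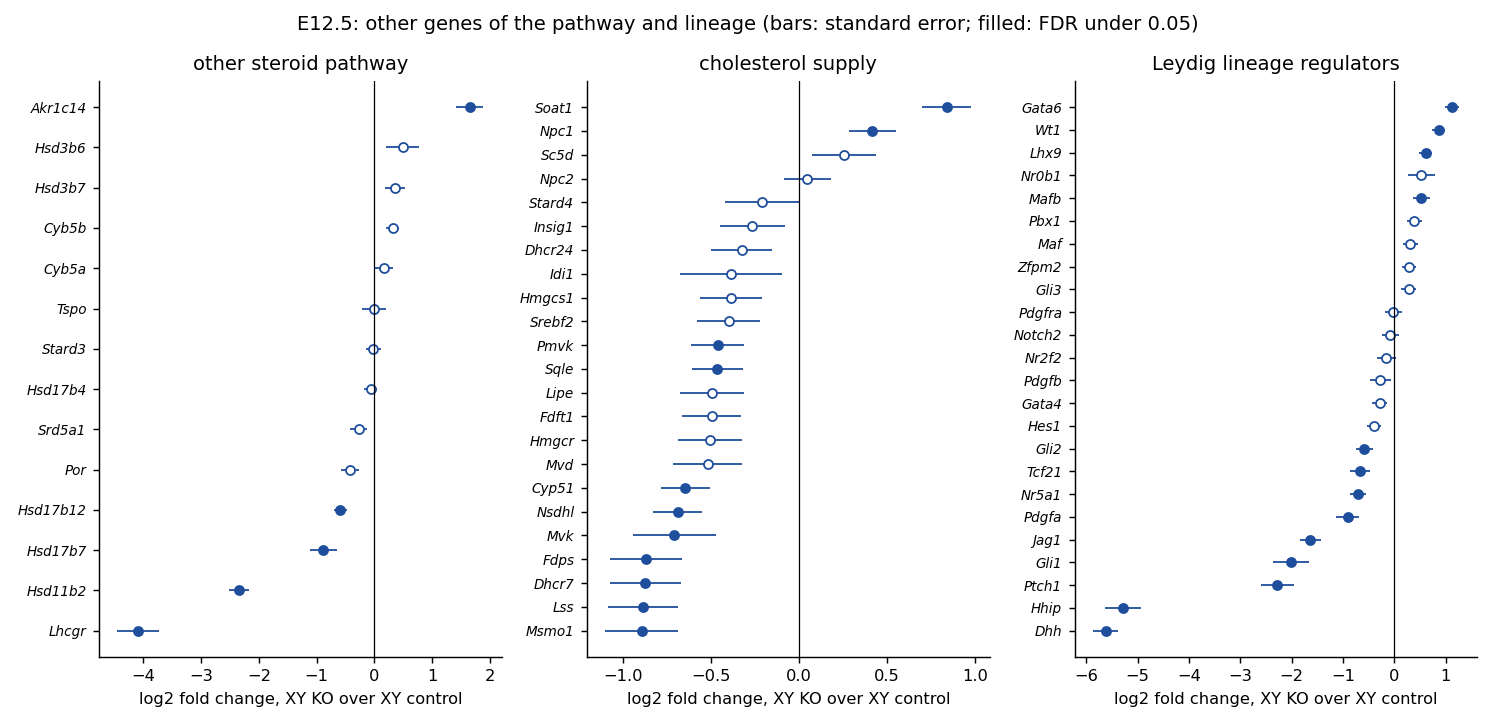
Log2 fold changes of XY KO over XY control gonads at E12.5 for tested genes of the other steroid pathway, cholesterol supply and Leydig lineage regulator lists, with horizontal bars of 1 standard error. Filled symbols passed an FDR of 0.05. Lhcgr, Dhh and Hhip lie below -4 while most cholesterol supply genes lie between -1 and 0. The horizontal scales of the panels differ.

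A day earlier the 10 genes ranged from 0 to 1677 reads per library. At E11.5, 7 of the 10 genes passed the filter, and Cyp17a1, Hsd17b1 and Insl3 did not. Summed over the 10 genes, levels were 142 to 173 CPM in XY control and 111 to 113 CPM in XY KO gonads, and most of that was Scarb1, Fdxr and Fdx1. Between control sexes 1 of the 7 was called (edgeR, with 6 at an unadjusted p under 0.05). Of the 14217 genes tested, 0.528% were lower in XX and 0.886% were called in either direction. The gene called was Hsd17b3, counted 70, 74 and 94 times in XY control and 8, 16 and 4 times in XX control libraries. Its log2 difference was -3.13 (SE 0.34, FDR 1.3e-04). It was read at 2.75 to 4.46 CPM in XY control libraries and at most 0.47 CPM elsewhere. So at this stage too it passed the filter only through the group in which it is high. Without XY control replicate 2 the number called was 3, with Fdxr (-0.58, FDR 0.0045) and Hsd3b1 (-1.37, FDR 0.022) added.

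The deletion lowered 3 of the 7 genes in XY gonads at E11.5, where 6.81% of all genes tested were called lower and 12.7% in either direction. Hsd17b3, counted 70, 74 and 94 times in XY control, was counted 5, 4 and 6 times in XY KO libraries (log2 fold change -3.89, SE 0.38, FDR 2.5e-05). Cyp11a1 was read at 10.1, 8.78 and 7.26 CPM in XY control and at 2.00, 1.59 and 1.03 CPM in XY KO libraries (-2.48, SE 0.25, FDR 3.6e-05). Fdxr was read at 45.1, 31.7 and 46.3 CPM in XY control and at 23.2, 22.0 and 20.9 CPM in XY KO libraries (-0.89, SE 0.14, FDR 0.0012). The groups did not overlap for any of these, and the share of all genes without overlap was not computed. Star was not called at 13.8 to 16.7 CPM against 10.4 to 13.0 CPM (-0.41, 95% interval -0.73 to -0.09, FDR 0.084), nor was Hsd3b1 (-0.96, interval -1.80 to -0.13, FDR 0.12). Without XY control replicate 2, both were called (Star -0.48, FDR 0.044, and Hsd3b1 -1.25, FDR 0.029). The intervals of Scarb1 (-0.39 to 0.07) and Fdx1 (-0.37 to 0.14) do not reach -0.89, the value of Fdxr.

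Cyp11a1 was present in control gonads of both sexes at E11.5 and low in both KO groups. XX control libraries held 12.7, 9.64 and 15.2 CPM, with no lower level than XY controls (log2 difference 0.51, 95% interval 0.05 to 0.98, FDR 0.24), and XX KO libraries held 1.80, 2.296 and 1.94 CPM. It was called lower in XX KO gonads (-2.63, SE 0.24, FDR 8.7e-05), the only call among the 7 genes tested. Of all genes, 1.46% were called lower and 3.27% in either direction. At an unadjusted p under 0.05 (edgeR) 4 of the 7 passed. The others were Hsd17b3 (-1.43, FDR 0.14, at 3 to 16 reads per library), Fdxr (-0.35, FDR 0.22) and Scarb1 (0.29, FDR 0.17). The fall of Cyp11a1 in XY did not differ detectably from that in XX gonads (interaction 0.15, 95% interval -0.59 to 0.89, FDR 0.90). For the interaction 0 of the 7 genes were called at E11.5 (edgeR and DESeq2, with 3 in edgeR at an unadjusted p under 0.05), where 0.0352% of all genes were. Against XX controls, XY KO gonads were lower for Cyp11a1 (-2.99, SE 0.25, FDR 5.6e-06) and for no other of the 7, where 5.28% of all genes tested were called lower and 9.09% in either direction. Fdxr sat at the threshold in that comparison (-0.46, SE 0.14, FDR 0.0502) and passed it under 4 other settings and in 5 of the fits that each left out 1 library. Between the KO groups 0 of the 7 were called (edgeR and DESeq2; 1 in edgeR at an unadjusted p under 0.05), where 0.0844% of all genes were, and the Cyp11a1 interval was -0.20 to 0.93.

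At E11.5 the dissected tissue included the mesonephros, and other steroidogenic tissue lies nearby. The adrenal cortex markers summed to 6.87 to 7.99 CPM in XX control and 3.53 to 5.62 CPM in XX KO gonads, and to 6.03 to 9.20 CPM in XY control and 5.02 to 7.82 CPM in XY KO gonads. Of the 5 markers 1 passed the filter, Mc2r, which was not called in either sex (-0.76, FDR 0.068, in XX and -0.16, FDR 0.65, in XY gonads). Of the defining cortical enzyme genes, Cyp11b1 was at no more than 0.32 CPM and Cyp11b2 at no more than 0.05 CPM in any library, and Cyp21a1 at no more than 0.47 CPM except in XY control replicate 3, with 33 reads. Adrenal medulla and neural crest markers were less even, summing to 6.46 to 94.1 CPM in XX KO and 18.25 to 56.1 CPM in XX control gonads. In XY gonads they summed to 34.7 to 108.7 CPM in KO and 42.2 to 71.75 CPM in control. Of these 6 markers 0 were called in either sex. The part of adrenal cells in the Cyp11a1 level was not tested. Markers of some other cells moved at this stage too. Of all genes, 6.81% were called lower and 12.7% in either direction between the XY groups. Between the XX groups these shares were 1.46% and 3.27%. In XY KO gonads 8 of 10 Sertoli markers were called lower than in XY control, with a sum of 90.0 to 98.9 CPM against 195 to 375 CPM, and in XX KO gonads none of the 10 was called. Of 6 macrophage markers 3 were lower in XY KO, with a sum of 59.8 to 80.0 CPM against 82.2 to 114 CPM, and 2 were lower in XX KO, at 55.4 to 75.5 CPM against 97.2 to 111.5 CPM. Of 7 pre-granulosa markers 2 were lower and none higher in XX KO gonads, with a sum of 325 to 368 CPM against 452 to 461 CPM. In XY KO gonads 2 of these 7 markers were higher and 1 lower, with a sum of 259 to 277.6 CPM against 282.5 to 347.6 CPM. No germ cell, endothelium or erythroid marker tested was called in either sex, and 1 of 8 mesonephric markers was lower in XY KO gonads. The part of these cells in the changes of Cyp11a1, Hsd17b3 and Fdxr was not tested.

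**Figure D4:**
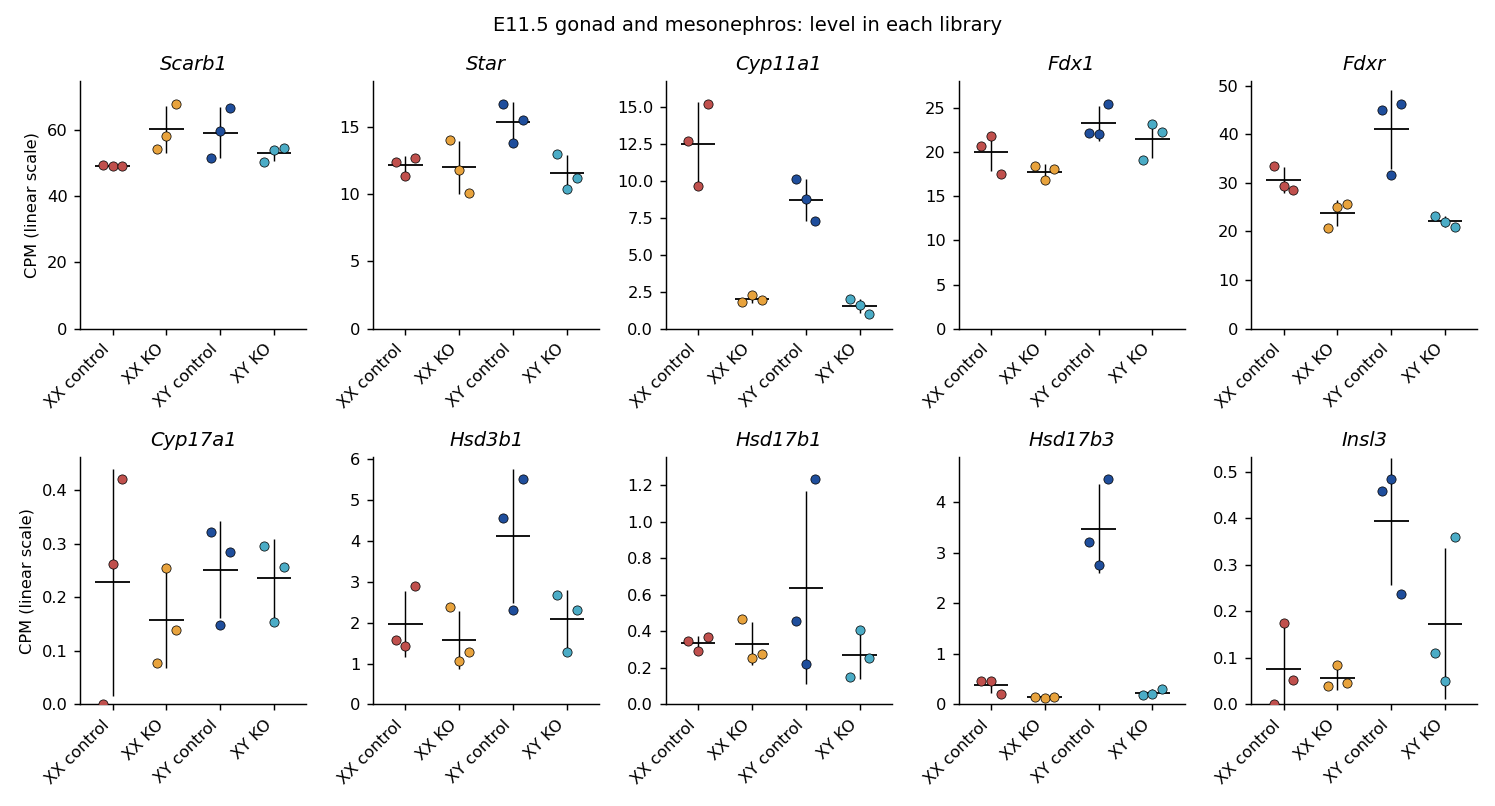
Level of each of the 10 genes in the 12 E11.5 libraries as CPM on linear axes that start at 0, one panel per gene with its own vertical range. Points are libraries in replicate order, horizontal bars are group means and vertical bars the SD, not drawn below 0. Cyp11a1 is lower in both KO groups, while Hsd17b3 is higher in the 3 XY control libraries than in the other 9.

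The 3 genes below the filter were at the limit of what these libraries can count. Cyp17a1 was counted 0 to 9 times in every library of every genotype at E11.5, so no difference was detectable. Hsd17b1 was counted 4 to 12 times except in XY control replicate 3, with 26 reads. Insl3 was counted 10, 13 and 5 times in XY control, 0, 6 and 1 times in XX control, 3, 1 and 7 times in XY KO and 1, 2 and 1 times in XX KO libraries. XY and XX controls did not overlap in CPM for Insl3 (0.24 to 0.48 against at most 0.18), with a two-sided exact permutation p of 0.1, the smallest that 3 against 3 libraries can give. Jak3, with which Insl3 shares exon bases, was itself lower in XY KO than in XY control gonads at this stage (-1.01, FDR 9.8e-04). None of these 3 genes was called when they were fitted without the filter (edgeR).

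At E11.5 part of the lineage regulators already differed between XY groups. Of 25 tested 6 were lower and 3 higher in XY KO than in XY control gonads, where 6.81% of all genes were lower and 12.7% called in either direction. The number called was 5 rather than 9 when only those 2 groups were fitted. Nr5a1 was read at 106 to 137 CPM in XY control and 44.0 to 64.5 CPM in XY KO gonads (-1.21, SE 0.15, FDR 2.8e-04), against no call in XX gonads (-0.24, SE 0.15, FDR 0.50). Dhh was read at 6.06 to 31.3 CPM in XY control and at most 1.69 CPM in XY KO gonads (-3.70, SE 0.57, FDR 0.0025). Its targets Ptch1 (0.02, FDR 0.96) and Gli1 (-0.31, FDR 0.20) were not called, and Hhip rose in both sexes (0.87 in XY, FDR 0.0034, and 0.66 in XX gonads, FDR 0.036). Of the other steroid pathway genes 13 of 16 were tested, with 2 higher and none lower in XY KO gonads. Hsd3b6 was one of them and rose in both sexes, from 3.95 to 6.36 CPM to 12.51 to 19.02 CPM in XY (1.65, SE 0.33, FDR 0.0067) and from 3.49 to 4.73 CPM to 9.18 to 27.5 CPM in XX gonads (2.1, SE 0.33, FDR 0.0047). Akr1c14 was the other (0.76, SE 0.22, FDR 0.037), and its call was lost without any 1 of 5 XY libraries (FDR 0.069 to 0.12). XY control replicate 2 was the exception, and without it 4 genes of the list were called. Of 24 cholesterol supply genes 1 was called, Stard4, which rose in XY KO gonads (0.36, FDR 0.029). That call was lost without XY control replicate 1 or 3 and without XY KO replicate 1 or 2 (FDR 0.055 to 0.10), and the number called in the list ran from 0 to 2 over the fits that left out 1 library and from 0 to 4 under the other settings.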

How the data were processed

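RNA was sequenced as 2 × 75 base pairs, from stranded libraries. According to the submitters' processing notes the reads were aligned to mm10 and counted with featureCounts (Subread); versions are not given there. The deposited values are raw counts per gene from the authors, not normalized. The 24 libraries of the miR-17~92 series were used; 12 columns of Foxl2-mutant libraries were not used. Each stage was fitted separately with 4 group means, for genes that reached 1 CPM in 2 or more of its 12 libraries, by edgeR 4.0.16 in R 4.3.3 (TMM, robust quasi-likelihood test, Benjamini-Hochberg over all tested genes, FDR under 0.05). SEs are the absolute log2 fold change over the square root of F, and intervals are at 95%. TMM factors ranged from 0.944 to 1.04. The common biological variation coefficients were 0.132 (E11.5) and 0.172 (E12.5). Replicates differed beyond counting noise, with chi-square per degree of freedom from 7.23 to 84.7. On simulated counts the fit recovered 83% (E11.5, 14109 genes) and 70% (E12.5, 13722 genes) of 200 genes changed 2-fold between XY KO and XY control. False calls were 5.14% and 5.41% of the calls made. The changed genes were drawn above a minimum count in XY controls, and every group was simulated from the XY control mean. The recovery therefore does not cover genes below that minimum. RPKM and gene positions used GENCODE M21 exons (GRCm38). DESeq2 1.42.0, other scalings, no filter, a replicate block, fits of 2 groups and fits without each library were the alternatives. Genes below the filter were compared by an exact permutation test of CPM.

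The 10 genes and the lists were chosen with earlier results of these data known. From each list, up to 6 genes of largest change called between XY KO and XY control at E12.5 were named, plus Lhcgr, Nr5a1, Hsd3b6, Dhh, Ptch1 and Gli1 whatever their values; Stard4, Mc2r, Cyp11b1, Cyp11b2, Cyp21a1, Cyp19a1 and Jak3 were named after their values were seen. Of the listed genes, 2 count in the list totals but are not reported here by name or in the plots. Pools of 2 pairs of gonads are separate samples by label, so p-values measure the spread between pools. Counts of 3 reads or fewer per library were treated as the floor.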

Additional observations from a re-analysis of the deposited data

Results flagged for a closer look

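For all 10 genes the effect of the deletion at E12.5 differed between XY and XX gonads by a test of the difference itself. Insl3, Hsd17b1 and Hsd17b3 passed the filter only through XY control libraries, so their calls here are not independent of the filter. The log2 effect in XY minus that in XX gonads was -8.64 for Cyp17a1, -6.38 for Cyp11a1, -6.11 for Hsd17b3, -6.05 for Insl3, -5.71 for Hsd3b1, -4.05 for Hsd17b1, -3.52 for Star, -2.30 for Fdx1, -2.20 for Fdxr and -1.89 for Scarb1. Leaving out 1 library moved the Insl3 value between -7.54 and -4.95, the Hsd17b3 value between -6.78 and -5.41 and the Hsd17b1 value between -4.93 and -3.49. All 10 genes were already lower in XX than in XY controls, by 2.94-fold (Fdxr) to 300-fold (Hsd17b3). Those near the floor in XX gonads had hardly any room to fall, which does not hold for Scarb1, Fdxr, Fdx1 and Star. Between the KO gonads of the 2 sexes 0 of the 10 were called. The difference in effect thus largely repeats that between the controls and is not a separate result. At E11.5 no such difference was called for the 7 genes tested (edgeR and DESeq2; 3 in edgeR at an unadjusted p under 0.05).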

How the results depend on the processing

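The 10 calls between XX and XY controls and the 10 between XY KO and XY control gonads at E12.5 held under DESeq2, DESeq2 size factors in edgeR, library size alone, no filter on low counts, a replicate block, a fit of only the 2 groups compared, and each of 12 fits that left out 1 library. The interaction at E12.5 gave 9 to 10 calls over those 12 fits, with Insl3 the one lost. At E12.5, DESeq2 raised the number called from 0 to 1 between XX KO and XX control (Cyp11a1) and from 0 to 1 between XY KO and XX control gonads (Fdxr), and the fit of only the 2 groups also gave 1 in the latter. Leaving out 1 library gave 0 to 1 calls in each of these and 0 to 3 between the KO groups. At E11.5 leaving out 1 library gave 1 to 3 calls between control sexes, 3 to 5 between XY KO and XY control, 1 to 2 between XY KO and XX control gonads and 0 to 1 for the interaction. XY control replicate 2 was the library left out in the highest counts of the first, second and last of these, and without any of 5 libraries Fdxr joined the third. DESeq2, DESeq2 size factors, no filter and the fit of only the 2 groups each gave 2 rather than 1 between XY KO and XX control gonads at E11.5, Fdxr being the one added. Hsd3b6 changed sign between control sexes at E12.5 without XX control replicate 1 (-0.02) and without XY control replicate 1 (-0.30), over a range of -0.30 to 0.47 around 0.04, and was called in none of these fits. Causes were not tested.

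Same-numbered libraries of different groups did not deviate together, with correlations from -0.20 to 0.35 at E11.5 and -0.38 to 0.29 at E12.5, so the replicate numbers were not taken to pair them. With the replicate block, 4 rather than 3 genes were called between XY KO and XY control gonads at E11.5 (Hsd3b1, -0.96, FDR 0.048, was added), and no other count of the 10 genes changed. The Nr5a1 difference between control sexes at E12.5 (-0.48, FDR 0.039) was lost under the block (-0.47, FDR 0.058), with library size alone (-0.40, FDR 0.081) and in 6 of the 12 fits that left out 1 library (FDR up to 0.15, at -0.36 without XY control replicate 1). At E11.5, 3 of the 10 genes had too few reads to be tested, and counts of Hsd17b3 and Insl3 outside XY control gonads were near the floor at both stages, which limits their fold changes to rough values.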
